A study of Mus musculus with 7 samples.

Results

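The metallothionein and zinc transporter genes Mt1, Mt2, Mtf1, Slc30a1, Slc39a8 and Slc39a14 were followed through spleens of lipopolysaccharide-treated mice. They were found by symbol, and all 6 were present among the 17920 genes of the table. RNA was sequenced from the mashed spleen of C57BL/6 mice aged 8 weeks, and every mouse, of either genotype, had received 20 mg/kg of lipopolysaccharide (LPS), a bacterial cell wall component, into the peritoneum. The 4 groups were wild type at 90 min (2 libraries), GdX-deficient at 90 min (2 libraries), wild type at 6 h (2 libraries) and GdX-deficient at 6 h (1 library). The series describes 1 mouse per library, 4 wild type and 3 lacking GdX, which is written GdX-/- in the genotype label and GdX-/Y in the protocol. GdX is the product of the X-linked gene Ubl4a. How the allele was made is not given in the sources used here, and every spleen analysed here had seen LPS, so levels in untreated mice are unknown.

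The members were proposed with the values of these libraries in view. Their levels and differences in every comparison are therefore given as a description, without a p-value, and the counts of members past a threshold support nothing by themselves. The labelled tissue was checked first. Markers of B cells, T cells and red pulp macrophages were present in all 7 libraries, and no marker of pancreas, fat or liver exceeded 0.41 FPKM (fragments scaled to transcript length and library size, the deposited unit). The estimated depth was between 18300000 and 20400000 fragments per library. The sum of Ubl4a and Gm44504, an overlapping entry of the same locus, was at most 11.2 FPKM in the GdX-deficient libraries and at least 21.0 FPKM in wild type, as labelled, although Ubl4a alone overlapped between the genotypes. Replicate 2 of the GdX-deficient 90 min group stood apart from the other 90 min libraries. Its 6 neutrophil markers summed to 4657 FPKM, against 680 to 1063 FPKM in the other 3. In RNA of a whole spleen, fewer cells of a type and less RNA per cell cannot be told apart.

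Metallothioneins are small cysteine-rich proteins that bind zinc and copper and buffer the free metal of the cell. The transcription factor encoded by Mtf1 senses zinc through its zinc fingers, binds metal response elements and switches on Mt1, Mt2 and the zinc exporter gene Slc30a1. ZIP proteins, the Slc39a family, bring zinc into the cytosol, and ZnT proteins, the Slc30a family, move it out of the cell or into organelles. During inflammation, zinc is drawn from the blood into tissues, and metallothioneins and the importers ZIP14 (Slc39a14) and ZIP8 (Slc39a8) are known as inducible parts of that response.

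The DNA before the start of Mt1, Mt2 and Slc30a1 is shown because Mt1 and Mt2 moved together across the libraries while Slc30a1, another known target of the same factor, did not follow them. The stretches are the 250 bases upstream of the start annotated by RefSeq on GRCm38.p6, on the + strand, at chr8:94178839-94179088 for Mt1, chr8:94172368-94172617 for Mt2 and chr1:191906531-191906780 for Slc30a1. Capitals mark the core of the metal response element, searched as TGCACNC and TGCGCNC on both strands.
Mt1: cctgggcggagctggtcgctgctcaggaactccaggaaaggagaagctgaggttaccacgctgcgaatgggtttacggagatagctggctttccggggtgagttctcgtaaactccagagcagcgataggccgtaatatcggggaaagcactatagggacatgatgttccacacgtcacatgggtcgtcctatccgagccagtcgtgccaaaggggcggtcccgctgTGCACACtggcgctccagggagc
Mt2: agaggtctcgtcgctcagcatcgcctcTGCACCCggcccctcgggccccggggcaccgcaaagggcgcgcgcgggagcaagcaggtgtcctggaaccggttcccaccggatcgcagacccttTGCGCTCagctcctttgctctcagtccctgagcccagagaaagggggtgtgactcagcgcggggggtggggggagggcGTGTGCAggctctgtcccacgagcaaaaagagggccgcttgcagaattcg
Slc30a1: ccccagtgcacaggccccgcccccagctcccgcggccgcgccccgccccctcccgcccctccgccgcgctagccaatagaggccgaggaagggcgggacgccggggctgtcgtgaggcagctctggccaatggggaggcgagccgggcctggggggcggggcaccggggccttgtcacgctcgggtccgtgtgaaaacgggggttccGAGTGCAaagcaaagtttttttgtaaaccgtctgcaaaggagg
Windows were available for 5 of the 6 members. Over the whole window of 300 bases, 250 before and 50 after the start, the core occurred 3 times at Mt1, 4 times at Mt2, 2 times at Slc30a1 and not at all at Mtf1. Slc39a8 has a pair of annotated starts, with 1 match at one and none at the other. Of all 32851 windows of this length, 25.7% held at least 1 match, 7.11% at least 2, 1.97% at least 3 and 0.517% at least 4. The core of the antioxidant response element (TGACNNNGC, both strands) occurred once each at Mt2, at Slc30a1 and at one start of Slc39a8, and in no other member window. The STAT-type palindrome TTCNNNGAA occurred in none of them. Over all windows, 12.4% held the antioxidant core and 8.3% the palindrome. No metal response match shared bases with an antioxidant match in these windows. A match describes letters, not occupancy. The Mt1 matches lie close to the annotated start, 1 before it and 2 after it, and the window ends at +50. The window follows the annotated start, which was not checked against these libraries, so it may not hold the whole proximal promoter of Mt1. The counts of Mt1 and Mt2 are therefore not compared. A motif absent from the Mt1 window, such as the antioxidant core, may lie outside it.

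**Figure D1:**
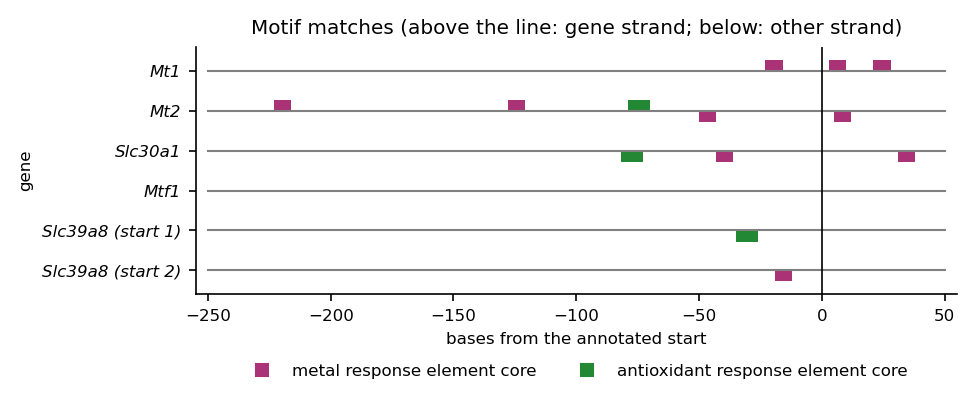
Positions of motif matches, in bases from the annotated start (vertical line), for the member windows; boxes above a line are on the gene's strand and boxes below it on the other strand. The windows hold 4 metal response element cores for Mt2, 3 for Mt1, 2 for Slc30a1 and none for Mtf1. The counts of Mt1 and Mt2 are not compared, since the window may not hold the whole proximal promoter of Mt1.

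Mt1 and Mt2, the metallothioneins made in most tissues, were by far the most abundant members. Both were lower in the GdX-deficient libraries than in the wild-type libraries of the same time. Mt1 (Entrez gene 17748, chromosome 8) stood at 1195 and 823 FPKM in wild type and at 629 and 210 FPKM in GdX-deficient spleen at 90 min. At 6 h it stood at 740 and 356 FPKM in wild type and at 103 FPKM in the GdX-deficient library. No GdX-deficient library reached a wild-type library of its time, and the GdX-deficient library at 6 h was the lowest of all 7. Mt2 (Entrez gene 17750, chromosome 8) stood at 902 and 634 FPKM in wild type and at 462 and 153 FPKM in GdX-deficient spleen at 90 min. Its levels at 6 h were 811 and 435 FPKM in wild type and 139 FPKM in the GdX-deficient library. The order of the libraries was the same for Mt2 at each time, and again the genotypes were apart. Of all tested genes, 23.4% were lower in GdX-deficient spleen without overlap at 90 min and 25.3% at 6 h.

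As a ratio of mean FPKM, wild type exceeded GdX-deficient spleen 2.40-fold for Mt1 and 2.5-fold for Mt2 at 90 min, and 5.31-fold and 4.47-fold at 6 h. The differences of the mean log2(FPKM + 1), a scale that understates the change of low genes, were -1.44 (SE 0.52) for Mt1 and -1.5 (SE 0.50) for Mt2 at 90 min. At 6 h, with 1 library and thus no error, they were -2.30 and -2.08. With both times in one additive fit (3 GdX-deficient against 4 wild-type libraries) they were -1.79 (SE 0.40) and -1.74 (SE 0.38). In that fit Mt1 ranked 12 and Mt2 ranked 16 from the lowest among 11378 genes. The members were chosen on these values, so nothing is read from these ranks. The size at 90 min depended on the library that stood apart. Leaving out replicate 2 of GdX-deficient spleen, the 90 min differences were -0.66 for Mt1 and -0.71 for Mt2, and without replicate 1 they were -2.23 and -2.30. Replicate 1 was below both wild-type libraries for both genes. Its neutrophil markers summed to 986 FPKM, within the wild-type range, and its erythroid markers to 833 FPKM, the highest of the 7 libraries.

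**Figure D2:**
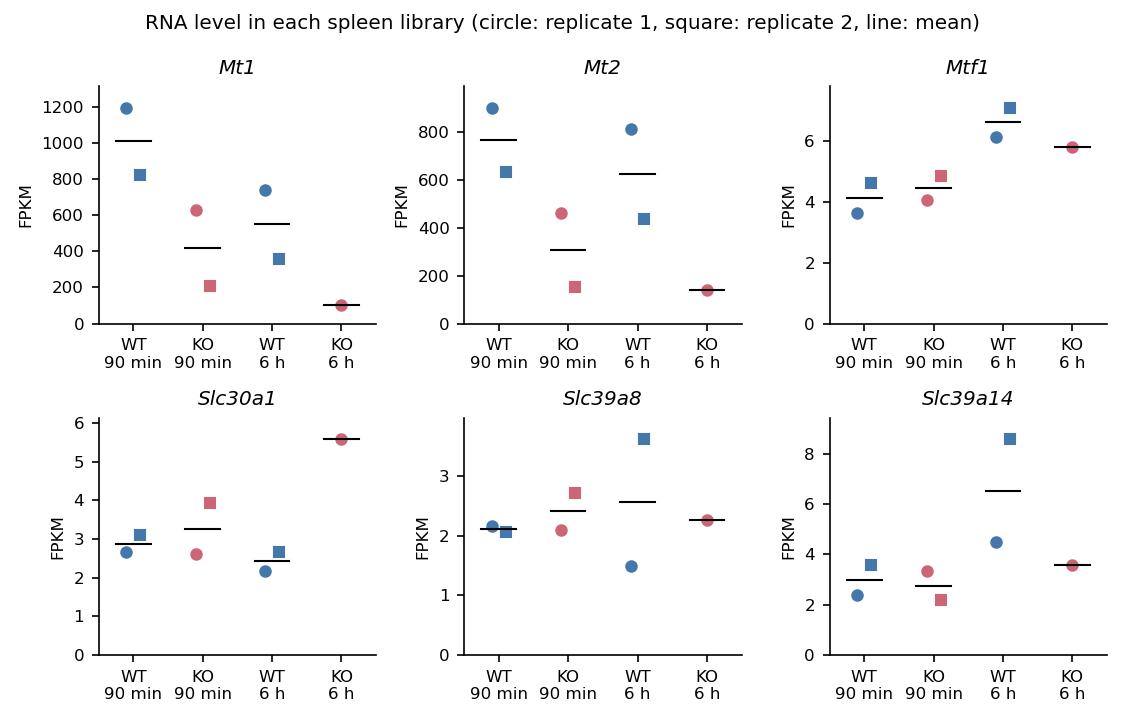
FPKM of each member in the 7 libraries (WT, wild type; KO, GdX-deficient); circles are replicate 1, squares replicate 2 and lines group means, on axes that start at 0. Mt1 and Mt2 of the GdX-deficient libraries lie below the wild-type libraries of the same time, from 1195 FPKM at the top to 103 FPKM at the bottom for Mt1, whereas Slc30a1 is highest in the GdX-deficient 6 h library at 5.58 FPKM.

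With time, Mt1 and Mt2 parted. In wild type, Mt1 was lower at 6 h than at 90 min in both libraries (log2 difference -0.95, SE 0.52), as 27.6% of all tested genes were, while Mt2 overlapped between the times (-0.35, SE 0.50). Without replicate 2 at 6 h, the wild-type time difference was -0.42 for Mt1 and 0.10 for Mt2. Without replicate 1 at 6 h, it was -1.48 and -0.80. In GdX-deficient spleen the 6 h library lay below both 90 min libraries for Mt1 (-1.81) and for Mt2 (-0.93), as it did for 15.8% of all tested genes. Without replicate 1 at 90 min, that difference was -1.02 for Mt1 and -0.13 for Mt2. The ratio of Mt1 to Mt2 within a library, which no scaling of that library can move, separated the times in both genotypes. It was 1.32 and 1.30 in wild type and 1.36 and 1.37 in GdX-deficient spleen at 90 min. At 6 h it was 0.913 and 0.818 in wild type and 0.741 in the GdX-deficient library. Mt1 was thus the more abundant metallothionein in all 4 libraries at 90 min, and Mt2 in all 3 at 6 h. The reversal is given as a description, without a test.

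The counts behind the ratio are large. With the estimated depths, Mt1 rested on about 1094 fragments in its lowest library and 12856 in its highest, and Mt2 on about 1375 and 9033. The longest run of bases shared by the main Mt1 and Mt2 transcripts, of 549 and 511 bases in GENCODE vM21, is 20 bases. Both transcripts are short. In the wild-type pairs, replicate 1 had relatively more of the short transcripts (Spearman's rho across genes between replicate difference and length was -0.446 at 90 min and -0.591 at 6 h; genes are not independent replicates). In the GdX-deficient pair it was -0.166. With a trend on transcript length removed from each library, the genotype difference of Mt1 was -1.08 at 90 min and -2.01 at 6 h, and that of Mt2 was -1.12 and -1.78.

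**Figure D3:**
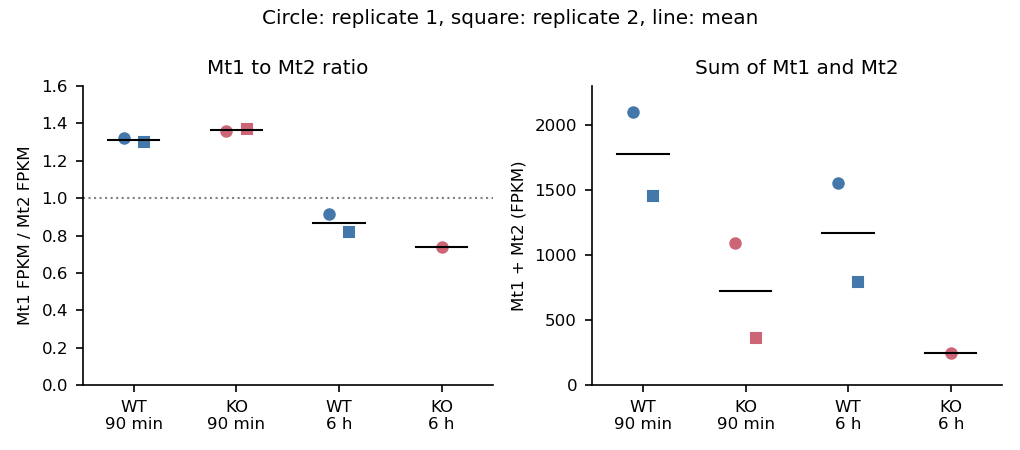
Left, ratio of Mt1 FPKM to Mt2 FPKM in each library (dotted line at 1); right, the sum of both in FPKM; WT, wild type; KO, GdX-deficient; circles are replicate 1, squares replicate 2 and lines group means. The ratio lies between 1.30 and 1.37 at 90 min and between 0.741 and 0.913 at 6 h in both genotypes, while the sum is lower in the GdX-deficient libraries at each time.

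Markers of other cells also differed between the libraries. The 3 erythroid markers Klf1, Epor and Alas2, none of them at 0 in any library, separated the genotypes at both times, in the direction opposite to Mt1 and Mt2. They summed to 373 and 425 FPKM in wild type and to 833 and 637 FPKM in GdX-deficient spleen at 90 min, and to 139 and 191 FPKM against 371 FPKM at 6 h. Limma called 0 of these 3 for genotype at 90 min, with 3 of 3 at an unadjusted p under 0.05, and all 3 were at least 2-fold higher at 6 h. Of all genes, 0.0176% were called and 7.58% had an unadjusted p under 0.05 at 90 min, and 16.5% were 2-fold higher at 6 h. The neutrophil markers S100a8, S100a9, Ly6g, Csf3r, Cxcr2 and Retnlg, all 6 of them above 0 in every library, summed to 1063 and 680 FPKM in wild type and to 986 and 4657 FPKM in GdX-deficient spleen at 90 min. At 6 h the sums were 1057 and 734 FPKM against 2558 FPKM. The 2 libraries with the lowest metallothionein levels were thus the 2 with the highest neutrophil sums, while the sums of the genotypes overlapped at 90 min. All 6 markers had a higher mean in GdX-deficient spleen at 90 min (median log2 difference 1.31). Limma called 0 of them, with 2 at an unadjusted p under 0.05, beside 7.58% of all genes. With time as covariate it called 0, with 6 under an unadjusted 0.05, beside 27.0%. All 6 were at least 2-fold higher at 6 h, beside 16.5%. The 3 monocyte markers summed to between 78.5 and 102 FPKM in 6 libraries and reached 223 FPKM in the single GdX-deficient one at 6 h. The 5 B cell markers also stood highest in these libraries, at 1946 and 1658 FPKM, against 1124 to 1424 FPKM in the rest of the 90 min set and 456 and 457 FPKM for the wild-type pair at 6 h. The 5 T cell markers overlapped between the genotypes at 90 min (265 and 215 against 188 and 230 FPKM), and at 6 h they summed to 116 and 90.6 FPKM against 204 FPKM, with 4 of 5 at least 2-fold higher, beside 16.5% of all genes. The endothelial sum was 54.8 and 65.0 FPKM against 96.9 FPKM at 6 h. Stromal markers, in contrast, stood lower at 90 min in both GdX-deficient libraries (19.8 and 16.8 FPKM, against 87.3 and 44.7 FPKM) and higher at 6 h (41.0 against 22.9 and 29.7 FPKM). All 5 were lower at 90 min (median log2 difference -1.28). Limma called 0 of them, with 4 at an unadjusted p under 0.05, beside 7.58% of all genes. At 6 h, 4 were higher and 1 lower, and 2 were at least 2-fold higher, beside 16.5% of all genes. The part of these shifts in the metallothionein values was not tested.

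Mtf1 (Entrez gene 17764, chromosome 4), which encodes the zinc sensor itself, stood at 3.63 and 4.60 FPKM in wild type and 4.07 and 4.84 FPKM in GdX-deficient spleen at 90 min, where the genotypes overlapped. At 6 h it stood at 6.12 and 7.09 FPKM in wild type and at 5.80 FPKM in the GdX-deficient library. All 3 libraries at 6 h were above all 4 at 90 min, opposite to the order of Mt1 over time within each genotype. The log2 difference between the times was 0.58 (SE 0.29) in wild type and 0.32 in GdX-deficient spleen, where it was 0.02 after quantile normalization and 0.07 with the length trend removed. Of all tested genes, 30.3% were higher at 6 h without overlap in wild type and 56.8% in GdX-deficient spleen. The genotype difference was 0.10 (SE 0.29) at 90 min and -0.16 at 6 h, and its sign turned with scaling: -0.08 and -0.66 after quantile normalization, -0.25 and -0.84 with the length trend removed, 0.27 and 0.08 with globin genes left out of the scaling. Its transcript is long, at 7631 bases. In the additive fit the time difference was 0.47 and the genotype difference -0.01 as deposited, against 0.43 and -0.48 with the length trend removed, so which of the differences is larger depends on the scaling.

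Slc30a1 (Entrez gene 22782, chromosome 1) encodes ZnT1, which exports zinc across the plasma membrane. It did not share the pattern of Mt1 and Mt2. Its level was 2.66 and 3.10 FPKM in wild type and 2.60 and 3.92 FPKM in GdX-deficient spleen at 90 min. At 6 h it was 2.18 and 2.66 FPKM in wild type and 5.58 FPKM in the GdX-deficient library, which was the highest of the 7 and had the lowest Mt1. The genotypes overlapped at 90 min (log2 difference 0.12, SE 0.29). At 6 h the ratio of the GdX-deficient library to the wild-type mean was 2.31, a difference of 0.95 on the log2(FPKM + 1) scale, against a median of 0.32 over all tested genes, of which 54.9% were higher without overlap. After quantile normalization, which brought that median to -0.02, the difference was 0.35, and with the length trend removed it was 0.40. With a pseudocount of 0.1 it was 1.18. The ratio of Mt1 to Slc30a1 in a library spanned from 449 in wild type at 90 min to 18.5 in the GdX-deficient library at 6 h.

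Slc39a14 and Slc39a8 encode the importers ZIP14 and ZIP8, which also carry iron and manganese. Slc39a14 (Entrez gene 213053, chromosome 14) stood at 2.40 and 3.60 FPKM in wild type and 3.35 and 2.17 FPKM in GdX-deficient spleen at 90 min. It stood at 4.48 and 8.59 FPKM in wild type at 6 h and at 3.58 FPKM in the GdX-deficient library. In wild type the times did not overlap (log2 difference 0.87, SE 0.36), with 0.47 left without replicate 2 at 6 h. As stated for Mtf1, 30.3% of all genes were higher at 6 h in this way. The GdX-deficient library at 6 h lay below both wild-type libraries (-0.66), as it did for 25.3% of all genes, and this difference was -0.26 without replicate 2 of wild type. In GdX-deficient spleen the time difference was 0.30, and it was -0.02 after quantile normalization. Slc39a8 (Entrez gene 67547, chromosome 3) stood between 1.5 and 3.62 FPKM, and both extremes were wild-type libraries at 6 h. The other 5 libraries lay between 2.07 and 2.72 FPKM, and the groups overlapped in each of the 4 pairwise comparisons. Slc39a8 rested on about 104 to 247 fragments per library and Slc39a14 on about 120 to 521. Neither importer separated the genotypes at 90 min.

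**Figure D4:**
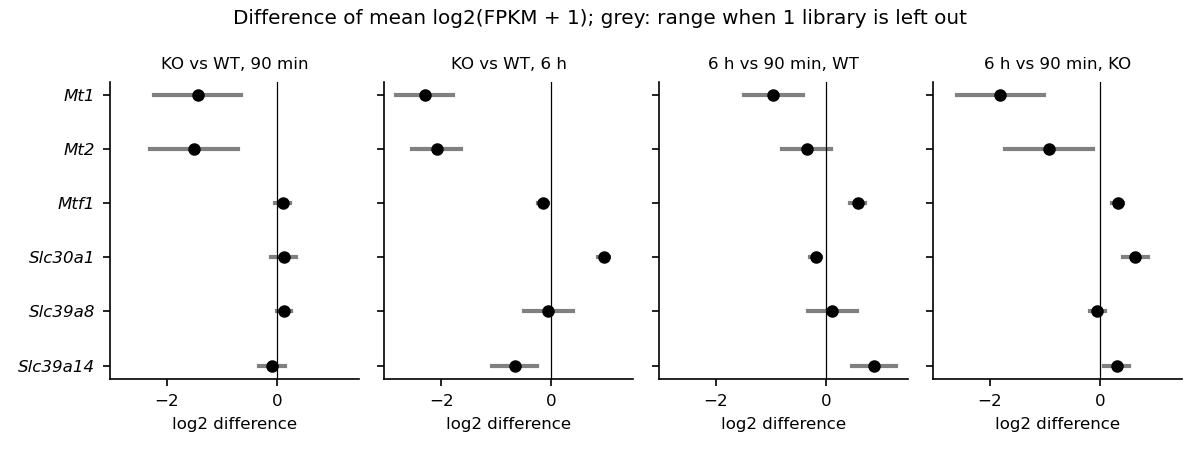
Difference of the mean log2(FPKM + 1) for each member in the 4 pairwise comparisons (WT, wild type; KO, GdX-deficient; points), with the range obtained when 1 library at a time is left out (grey bars). Mt1 and Mt2 lie to the left of 0 in both genotype comparisons under every omission, at 90 min from -2.23 to -0.66 for Mt1, and Slc30a1 lies at 0.95 in the 6 h comparison.

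Set against all genes, the members did not pass the threshold of the whole-table fit. Limma, with Benjamini-Hochberg adjustment over 11378 genes and a threshold of 0.05, called 0 of the 6 members for genotype at 90 min, where it called 0.0176% of all genes, and 2 members had an unadjusted p under 0.05 against 7.58% of all genes. For genotype with time as covariate it called 0 members and 0.0439% of all genes, with 2 members and 27.0% of all genes under an unadjusted 0.05. For time in wild type it called 0 members and 10.7% of all genes, with 1 member and 28.7% under an unadjusted 0.05. For time with genotype as covariate it called 0 members and 5.44% of all genes, with 2 members and 26.6% under an unadjusted 0.05. The interaction of genotype and time, which assumes that the lone library varies like the other groups, called 0 members and 0.0703% of all genes, with 0 members and 9.98% under an unadjusted 0.05. Mt1 and Mt2 were the members called for genotype at 90 min when only the 4 libraries of that time were fitted. In that fit 181 genes were called, against 2 in the fit of all libraries. The members were chosen on these values, so nothing is read from these calls.

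At 6 h, 2 of the 6 members, Mt1 and Mt2, were at least 2-fold lower on the log2(FPKM + 1) scale in the GdX-deficient library than in the wild-type mean and lay below both wild-type libraries, as did 5.47% of all genes. No member was 2-fold higher by this rule, as 16.5% of all genes were, and Slc30a1, at 0.95, lay just under it. For time in GdX-deficient spleen the rule counted 1 member as lower, Mt1, and 1.64% of all genes. Mt1 and Mt2 were also the 2 members lower without overlap in GdX-deficient spleen at both times, as 13.0% of all genes were. The members were chosen on these values, so nothing is read from these counts. The median log2 difference of the 6 members was 0.00 at 90 min and -0.41 at 6 h, beside 0.07 and 0.32 for all tested genes.

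The rest of the families was listed whole, without regard to values: 2 metallothioneins, 9 ZnT exporters and 12 ZIP importers. Mt3 and Mt4, known from brain and from stratified epithelium, lie in the same cluster on chromosome 8. Mt3 ranged from 0 to 1.03 FPKM and Mt4 from 0 to 0.27 FPKM, at most about 11 and 2 fragments, so neither entered the tests. The most abundant ZIP genes were Slc39a7, an importer from the endoplasmic reticulum and Golgi with 43.1 to 98.3 FPKM, and Slc39a1, with 42.5 to 67.3 FPKM. Among ZnT genes, Slc30a5 (17.4 to 28.7 FPKM) and Slc30a9 (11.1 to 20.5 FPKM) led. Both were thus well above the level of Slc30a1, a comparison of FPKM, which is per length. Slc39a3, Slc39a6, Slc39a9, Slc39a10, Slc39a11, Slc39a13, Slc30a4, Slc30a6 and Slc30a7 had medians between 3.63 and 9.96 FPKM, and Slc39a4 had 1.83 FPKM. Slc30a2, Slc30a3, Slc30a8, Slc30a10, Slc39a2, Slc39a5 and Slc39a12 did not exceed 1.06 FPKM in any library.

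Of the 14 family genes that were tested (5 ZnT and 9 ZIP genes), limma called 0 in each of the 5 tested comparisons. At an unadjusted p under 0.05 there were 0 for genotype at 90 min, 2 for time in wild type, 1 for genotype with time as covariate, 4 for time with genotype as covariate and 0 for the interaction. The shares of all genes were, in the same order, 7.58%, 28.7%, 27.0%, 26.6% and 9.98%. The smallest limma adjusted p among them was 0.107, for Slc39a7, whose time difference with genotype as covariate was 0.60 (SE 0.21). Slc39a10, an importer with a role in lymphocytes, stood at 18.7 FPKM in replicate 2 of wild type at 6 h and between 3.39 and 7.44 FPKM in the other 6 libraries. Slc30a7, a Golgi transporter, had the largest genotype difference with time as covariate of the 14, at 0.82 (SE 0.30, limma adjusted p = 0.127). It stood at 4.09 and 6.22 FPKM in wild type and 7.43 and 8.89 FPKM in GdX-deficient spleen at 90 min, and at 2.45 and 5.90 against 10.0 FPKM at 6 h. Its GdX-deficient libraries were above the wild-type libraries at each time, the reverse of the order of Mt1. Of all genes, 24.1% were higher without overlap at 90 min and 54.9% at 6 h. Slc30a7 was the 1 family gene of the 14 that met the 2-fold rule at 6 h, which 16.5% of all genes met as higher. The median difference of the 14 was 0.12 for genotype at 90 min and 0.31 at 6 h, close to the 0.07 and 0.32 of all tested genes.

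**Figure D5:**
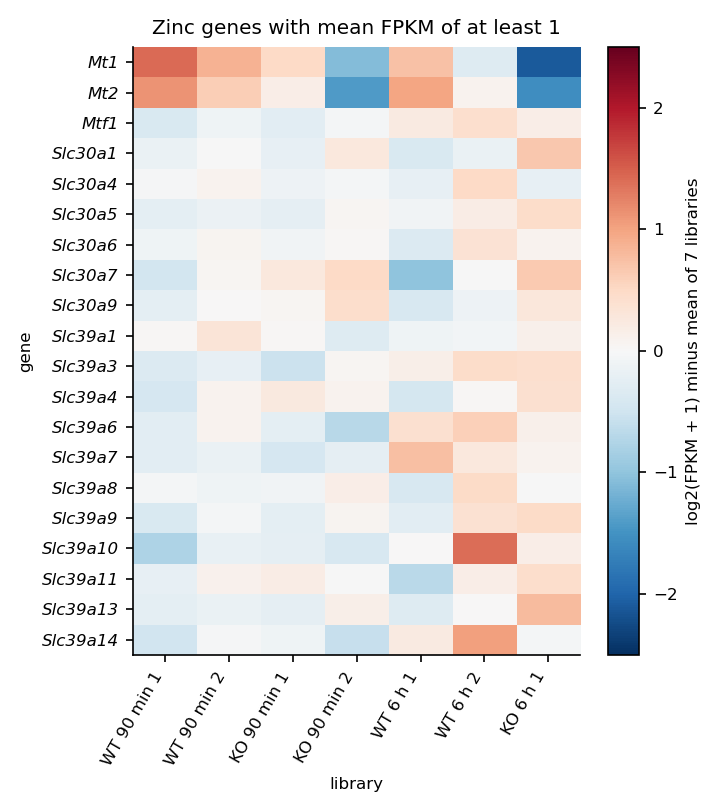
log2(FPKM + 1) of 20 genes (metallothioneins, Slc30a, Slc39a and Mtf1) that averaged 1 FPKM or more, minus the mean over the 7 libraries, by library (WT, wild type; KO, GdX-deficient; red higher, blue lower). Mt1 and Mt2 are lowest in replicate 2 of GdX-deficient spleen at 90 min and in the GdX-deficient 6 h library, and Slc30a1 is highest in the latter.

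Further genes reported to respond to MTF-1 were listed as well, and 6 of 7 were in the table, of which 5 were tested. Slc40a1, which encodes the iron exporter ferroportin of red pulp macrophages, was the 1 gene of this list past the threshold. It was called for time in wild type, as 10.7% of all genes were. It fell with time in wild type, from 15.3 and 14.8 FPKM at 90 min to 1.26 and 2.07 FPKM at 6 h (log2 difference -2.61, SE 0.33, limma adjusted p = 0.0033). In GdX-deficient spleen it stood at 14.2 and 23.9 FPKM at 90 min and at 18.3 FPKM at 6 h. The interaction was 2.59 (SE 0.53), and it did not pass the threshold (limma adjusted p = 0.113). For genotype with time as covariate, limma called 0 of the 5 genes, and 3 had an unadjusted p under 0.05, as 27.0% of all genes did. They were Slc40a1 (1.32, SE 0.46, limma adjusted p = 0.122), the stress-response gene Ndrg1 (-0.79, SE 0.27, limma adjusted p = 0.12) and Hamp, which encodes the iron hormone hepcidin (-1.24, SE 0.45, limma adjusted p = 0.126). Slc40a1 was at least 2-fold higher at 6 h, as 16.5% of all genes were. By the same rule Hamp was counted as lower, as 5.47% were, from 2.15 and 0.64 FPKM in wild type to a library in which it is listed at 0. At 90 min Hamp stood at 6.49 and 4.67 FPKM in wild type and at 4.70 and 0.28 FPKM in GdX-deficient spleen, where the genotypes overlapped. The value of 0.28 FPKM was that of replicate 2, the library that stood apart. All levels of Hamp were low. The 4 red pulp macrophage markers summed to 375 and 376 FPKM in wild type at 90 min and to 131 and 140 FPKM in the 6 h pair, against 283 FPKM in the GdX-deficient 6 h library. Their part in the values of Slc40a1 was not tested.

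The genes most like each member were sought among 7859 genes averaging 5 FPKM or more, by Pearson's r of log2(FPKM + 1) over the 7 libraries. These are descriptions without a test, the libraries share genotype and time, and the best of so many genes must have a high r. For Mt1 they were Bcl2a1d (r = 0.995), Batf (0.986) and Nfkbia (0.985), an apoptosis inhibitor, an AP-1 family factor and the NF-kB inhibitor. Nfkbia stood at 1516 and 1266 FPKM in wild type and at 991 and 414 FPKM in GdX-deficient spleen at 90 min, and at 930 and 536 against 287 FPKM at 6 h. For Mt2 they were the lipid droplet gene Hilpda (r = 0.991), Rab20 (0.975) and Csf3 (0.974), which encodes the granulocyte growth factor G-CSF. Csf3 stood at 42.2 and 33.5 against 20.9 and 1.52 FPKM at 90 min and at 29.0 and 22.3 against 0.67 FPKM at 6 h, wild type first. The 2 lowest libraries of Csf3 were those of Mt1 and Mt2. Mtf1 was most like Ncln (0.995), Slc30a1 like Fhod1 (0.988), Slc39a8 like Tbc1d15 (0.980) and Slc39a14 like Mrpl3 (0.996). Among the members themselves, r was 0.954 between Mt1 and Mt2, -0.853 between Mt1 and Slc30a1, and -0.487 between Mt1 and Mtf1.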

How the data were processed

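RNA from 7 mouse spleens was sequenced on a BGISEQ-500 instrument, after oligo(dT) selection or rRNA depletion, per the labels' protocols. The authors deposited FPKM values, as one table with a column for each library, per the file headers. The submitters' processing notes name HISAT, HISAT2 2.0.4, Bowtie2, RSEM and GRCm38.p5, without roles. FPKM is relative, so abundant globin transcripts (7.73% to 30.9% of the sum) move all other values. Depth was estimated from the steps between low values (203 to 238 genes per library).

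Values were taken as log2(FPKM + 1). Genes averaging 1 FPKM or more (11378 in number) were fitted with limma 3.58.1 in R 4.3.3 (trended empirical Bayes, two-sided, Benjamini-Hochberg). A fit of 4 groups gave genotype at 90 min, time in wild type and the interaction. An additive fit gave genotype and time over all libraries. Comparisons with the single GdX-deficient 6 h library were described. The fits were also run on simulated data, and the outcome of that run is not reported here.

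Members, lists and the rule for named genes (all members, all family genes, listed genes past the threshold, the 3 most correlated genes) were chosen with earlier results of these data known. The differences of Slc39a1, Slc39a7, Slc30a7 and Slc39a10, the levels of Cp and Gm44504, and the mention of Gclm, Hamp and Ndrg1 fall outside that rule and were chosen after their values were seen. A further erythroid marker is not reported here. Replicates share numbers in the titles. Same-numbered deviations correlated at 0.768 between the wild-type groups at 90 min and 6 h. They correlated at -0.12 between the genotypes at 90 min, and at 0.08 between GdX-deficient spleen at 90 min and wild type at 6 h. The numbers were thus not taken as pairing the animals across all groups. The wild-type times, whose same-numbered libraries deviated alike, were compared unpaired, and the replicate block is given as an alternative.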

Additional observations from a re-analysis of the deposited data

Results flagged for a closer look

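Slc39a1, which encodes the importer ZIP1, moved in opposite directions with time in the genotypes, with no overlap between the times in either. In wild type it was lower at 6 h (log2 difference -0.26), and in GdX-deficient spleen the 6 h library was higher than both at 90 min (0.27). Wild-type libraries had 54.6 and 67.3 FPKM at the early time, then 49.7 and 50.8 FPKM. GdX-deficient libraries had 54.6 and 42.5 FPKM at the early time, then 58.2 FPKM. Replicate 1 of each genotype was thus at 54.6 FPKM at the early time. The 42.5 FPKM was that of replicate 2, the library that stood apart. The interaction, which rests on the lone 6 h library, was 0.53 (SE 0.40, limma adjusted p = 0.767) and did not pass the threshold. Without overlap, 27.6% of all genes were lower with time in wild type and 56.8% were higher in GdX-deficient spleen, where the median difference of all genes was 0.25, near that of Slc39a1.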

How the results depend on the processing

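Results were recomputed with a pseudocount of 0.1, without the filter or with a mean FPKM of at least 5, quantile normalization, scaling without globin genes, removal of a length trend, the replicate block, only the libraries compared, and leaving out each library. Mt1 and Mt2 stayed lower in GdX-deficient spleen in all of these at 90 min and in those run at 6 h, where the block and the fit of only the libraries compared were not run. Fitting only the libraries of the comparison called 2 members (Mt1 and Mt2) for genotype at 90 min, among 181 genes. Leaving out 1 library gave from 0 to 2 called members for genotype at 90 min (2 without either wild-type library at 6 h, with 173 and 183 of all genes called against 2), for genotype with time as covariate (2 without replicate 2 of wild type or replicate 1 of the GdX-deficient group at 90 min, with 242 and 1674 of all genes called against 5) and for time in wild type (2, Mt1 and Slc39a14, without replicate 1 of wild type at 6 h, with 1517 of all genes called against 1218). It gave from 0 to 1 for time with genotype as covariate (Mt1, when wild-type replicate 1 at 6 h was left out, with 343 of all genes called against 619), and from 1 to 2 counted members for time in GdX-deficient mice (Mt2 added without replicate 2 at 90 min, with 1336 of all genes counted against 652). Of the other family genes, 1 was called for time in wild type with the length trend removed (Slc39a10, among 2423 genes), and leaving out 1 library gave from 0 to 1 (Slc39a10 or Slc39a7, without replicate 1 or 2 of wild type at 6 h, among 1517 and 1774 genes). With the replicate block, 1 member (Mt1) was called for time with genotype as covariate, where calls over all genes went from 619 to 765, and 1 family gene (Slc39a10) for time in wild type, where calls over all genes went from 1218 to 2345. Crossing the numbers of the GdX-deficient 90 min group, added after seeing the data because the deviations correlated at -0.12, was run for genotype at 90 min alone, where it called 0 members and 0 family genes, as did the uncrossed block. At 6 h, 3 members met the 2-fold rule for genotype under 6 settings: Slc30a1 was added with the pseudocount of 0.1, globin-free scaling or omission of wild-type replicate 2, and Slc39a14 with quantile normalization, length trend removed or omission of wild-type replicate 1. All genes meeting it then numbered 1832 to 3830, against 2501. The cause of these changes was not tested. Slc40a1 kept its call in all alternatives.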

Other observations

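Copper handling genes, 9 of 10 tested, were listed beside the zinc genes because metallothioneins also bind copper. Slc31a2, a copper transporter of endosomes, rose with time when genotype was a covariate (log2 difference 1.05, SE 0.24, limma adjusted p = 0.0356). The call was lost under 8 alternatives, with limma adjusted p from 0.0502 to 0.16. The levels went from 5.70 and 8.24 FPKM to 12.5 and 17.0 FPKM in wild type and from 8.21 and 10.5 FPKM to 21.9 FPKM in GdX-deficient spleen. It was higher in all 3 libraries at 6 h than in all 4 at 90 min. Of all tested genes, 30.3% were higher at 6 h without overlap in wild type and 56.8% in GdX-deficient spleen. The other 8 tested copper genes did not pass the threshold in any of the 5 tested comparisons, and 5.44% of all genes were called for time with genotype as covariate. At an unadjusted p under 0.05 limma had 0 of 9 copper genes for genotype at 90 min (7.58% of all genes), 2 for time in wild type (28.7%), 0 for genotype with time as covariate (27.0%), 2 for time with genotype as covariate (26.6%) and 0 for the interaction (9.98%). Cp, which encodes the copper protein ceruloplasmin, stood at 16.5 and 13.9 against 11.9 and 6.94 FPKM at 90 min and at 16.1 and 22.3 against 24.7 FPKM at 6 h, wild type first.

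Lists of genes known to respond to signals that also act on metallothioneins were described beside them. For time in wild type, limma called 5 of 8 IL-6 and STAT3 response genes, 2 higher (Lcn2 and Saa3) and 3 lower (Osmr, Il6 and Socs3). It called 1 of 8 tested glucocorticoid response genes, Pdk4, and 0 of 8 NRF2 oxidant response genes, 3 of which had an unadjusted p under 0.05. Of all genes, 10.7% were called in that comparison and 28.7% had an unadjusted p under 0.05. For time with genotype as covariate it called 6 of 8 IL-6 and STAT3 response genes, the same 5 and Bcl3 (lower), 2 glucocorticoid response genes, Pdk4 and Ddit4 (both higher), and 0 NRF2 genes, 5 of which had an unadjusted p under 0.05, beside 5.44% of all genes called and 26.6% under an unadjusted 0.05. For genotype at 90 min it called 0 genes of these 3 lists, with 2, 0 and 2 under an unadjusted 0.05 in the order IL-6, glucocorticoid and NRF2, beside 7.58% of all genes. For genotype with time as covariate it also called 0, with 2, 0 and 2 under an unadjusted 0.05 in the same order, beside 27.0% of all genes. The smallest adjusted p there was that of Il6 (log2 difference -2.68, SE 0.46, limma adjusted p = 0.0915), and Saa3 had -1.89 (SE 0.46, limma adjusted p = 0.101). The interaction rests on the lone GdX-deficient library at 6 h. Its median log2 difference was -0.5 for the IL-6 list, 0.38 for the glucocorticoid list and 0.36 for the NRF2 list, beside 0.19 for all genes. At 6 h, 2 IL-6 and STAT3 response genes were at least 2-fold lower in the GdX-deficient library, Il6 (-3.85) and Saa3 (-3.24), as were 5.47% of all genes, and 1 NRF2 gene, Gclm, was at least 2-fold higher, as were 16.5%. Il6 stood at 185 and 120 FPKM in wild type and 72.2 and 21.0 FPKM in GdX-deficient spleen in the early pairs, and at 34.7 and 31.1 against 1.35 FPKM at 6 h.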
